A study of Mus musculus with 2 samples.

Results

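The basal transcription machinery was examined in a comparison of 2 cultures of NIH3T3, a mouse fibroblast line that was established from embryos and divides without limit. The genes were chosen by symbol: those whose names begin with Polr1, Polr2 or Polr3 (RNA polymerase subunits), with Taf and a digit (TBP-associated factors), with Med and a digit (Mediator), or with Gtf2 or Gtf3 (general transcription factors). This gave 101 of the 18194 genes that have a probe set of their own, read by 202 of the 45101 probe sets of the array. No signal entered the choice, although the families were picked with earlier results of these arrays known, so every value is a description and none was tested. One culture carried a retrovirus whose hairpin RNA targets CCR4b (CNOT6L), a deadenylase of the CCR4-NOT complex, and the other a control RNAi virus. Both were grown in serum-containing medium and both were infected; the hairpin sequences, the number of hairpins and the time after infection are not given in the labels. Each culture was read on 1 Affymetrix Mouse Genome array, so there is no replicate error for any value, and "higher" and "lower" describe the CCR4b RNAi array set over the control array.

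RNA polymerase I makes the large ribosomal RNA precursor, RNA polymerase II makes mRNAs, and RNA polymerase III makes transfer RNAs and other short RNAs. Each enzyme combines its own subunits with a set that several polymerases share, and each is brought to its promoters by general factors. At RNA polymerase II promoters TFIID, made of the TATA-binding protein and the TAFs, recognises the core promoter, TFIIA, TFIIB, TFIIE, TFIIF and TFIIH complete the initiation complex, and Mediator relays signals from activators. Mediator is built of head, middle and tail modules with a kinase module that binds reversibly.

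The targeted gene, Cnot6l, was lower after CCR4b RNAi on each of its 4 probe sets, and its brightest read 102 and then 43.0 units (2.38-fold lower). All 10 fibroblast markers of a fixed list were measured, at 89.5 to 4022 units. The endothelial markers were below the detection floor of 8.07 units in 4 of 4 cases, 1 of 5 epithelial markers (Epcam, 19.4 and 29.5 units) was measured, and the 3 leukocyte markers measured, of 6 listed, lay between 9.13 and 24 units. The 3'/5' signal ratio of Actb, a sign of RNA integrity, was 1.35 in the control culture and 1.46 in the depleted one, and the Gapdh ratio was 0.824 and then 0.819. A list of 13 DNA replication genes was lower as a whole, with 13 of 13 at least 1.5-fold lower, against 14.6% of all measured genes. Its median log2 ratio was -1.11, against -0.07 for all measured genes. The part of this list in the results below was not tested. In RNA from a whole culture, fewer expressing cells and less RNA per cell cannot be told apart.

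Most transcription machinery genes had a slightly lower signal after CCR4b RNAi, and very few were at least 1.5-fold higher. Of the 101 genes, 97 reached the floor on at least 1 array with their brightest probe set, and 94 did so on both. Of these 97, 79 (81.4%) had a log2 ratio below 0 and 18 above it, where 56.0% of the 11915 genes measured in all were below 0; under the other scalings 71 to 80 members were below 0. The median log2 ratio was -0.32 for the 97 genes and -0.07 for all measured genes. At least a 1.5-fold lower signal was seen for 23 of 97 (23.7%), where 14.6% of all measured genes were that much lower, and at least a 1.5-fold higher signal for 2 of 97 (2.06%), where 11.3% of all genes were that much higher. At 2-fold the family was not apart from other genes on the lower side, with 2 of 97 lower against 4.48% of all genes, and 1 of 97 was higher against 3.74%. The differences were therefore small and one-sided: the middle of the family, from the 25th to the 75th percentile, spanned log2 ratios of -0.58 to -0.10, whereas that of all measured genes spanned -0.40 to 0.27.

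The excess of lower genes depended on the scaling of the arrays, whereas the scarcity of higher ones did not. Lower members numbered 36 after division by the array median (37.5%, against 19.0% of all genes), 16 with quantile normalization (16.7% against 13%) or a loess correction (16.5% against 12.5%), and 15 when each ratio was taken relative to genes of like signal (15.5% against 12.3%), which are shares close to those of all genes. The number at least 1.5-fold higher was 2 under each of these scalings, against 9.09% to 12.6% of all genes. Dividing by the array median also moved the share of all genes from 14.6% lower and 11.3% higher to 19.0% and 9.09%. The members' median lay below that of all genes under each scaling, by 0.21 to 0.26 log2 units.

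**Figure D1:**
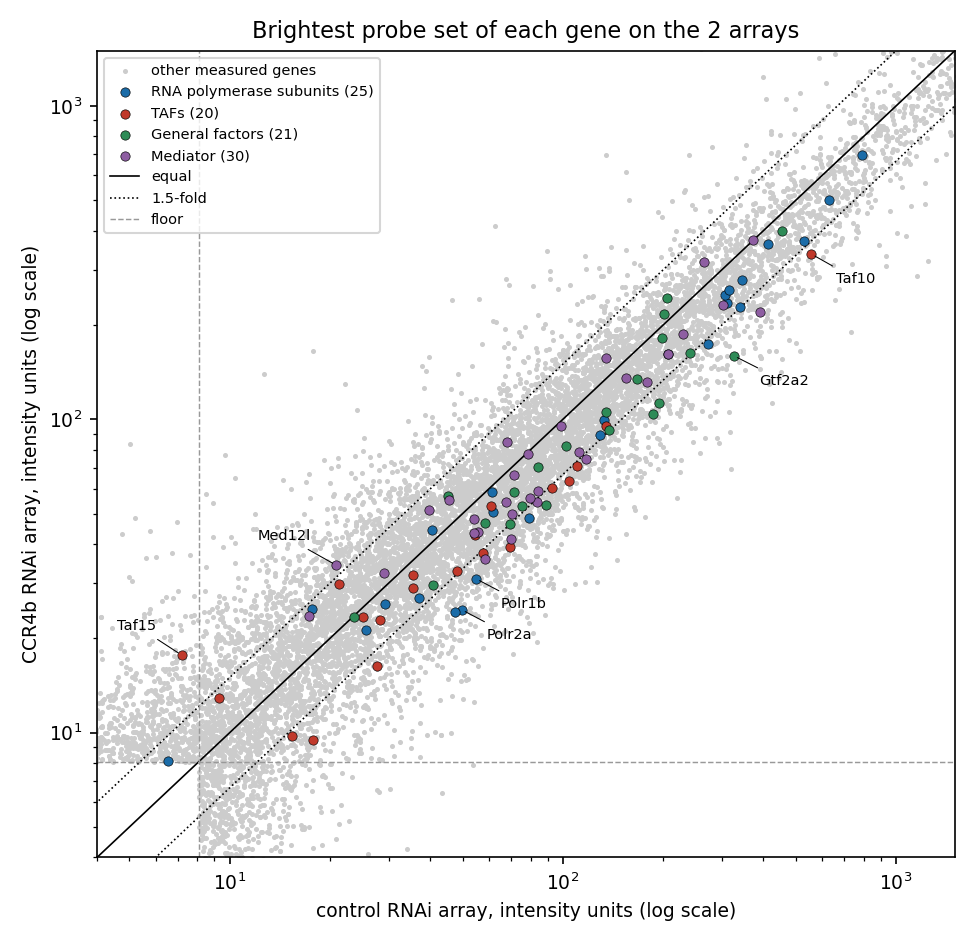
Intensity on the control RNAi array (x axis) and the CCR4b RNAi array (y axis), both on log scales, for the brightest probe set of each gene; coloured points are the 96 measured subunits and factors by family, grey points other measured genes, dotted lines a 1.5-fold difference and dashed lines the floor of 8.07 units. Most coloured points lie just below the line of equal signal, and only Med12l and Taf15 lie above the upper dotted line.

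Signal strength moves with these values. Of the 97 genes, 68 were in the brighter 5 of 10 signal classes, where 15.4% of all genes passed 1.5-fold downward and 6.38% upward. In those classes 15 of the 68 (22.1%) were lower and 0 higher. Among the 29 dimmer ones 8 (27.6%) were lower and 2 (6.90%) higher, beside 13.9% and 16.3% of all dim genes.

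The promoters of the 4 genes at the ends of the distribution are shown because they are the members at least 2-fold lower (Gtf2a2, Polr2a) or at least 1.5-fold higher (Med12l, Taf15). Each run is the 250 bases before the RefSeq transcription start (GRCm38.p6), 5' to 3' on the gene's strand, at chr9:70012298-70012547 (Gtf2a2, plus strand), chr11:69758634-69758883 (Polr2a, minus strand), chr3:59006728-59006977 (Med12l, plus strand) and chr11:83472858-83473107 (Taf15, plus strand). Capitals mark matches, on either strand, to a TATA box (TATAAA), a GC box (GGGCGG) or a CCAAT box (CCAAT).
Gtf2a2: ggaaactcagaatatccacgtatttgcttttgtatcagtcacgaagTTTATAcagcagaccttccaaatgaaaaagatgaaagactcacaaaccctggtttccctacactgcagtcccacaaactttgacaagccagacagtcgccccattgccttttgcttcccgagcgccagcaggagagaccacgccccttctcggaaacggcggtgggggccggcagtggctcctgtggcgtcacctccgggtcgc
Polr2a: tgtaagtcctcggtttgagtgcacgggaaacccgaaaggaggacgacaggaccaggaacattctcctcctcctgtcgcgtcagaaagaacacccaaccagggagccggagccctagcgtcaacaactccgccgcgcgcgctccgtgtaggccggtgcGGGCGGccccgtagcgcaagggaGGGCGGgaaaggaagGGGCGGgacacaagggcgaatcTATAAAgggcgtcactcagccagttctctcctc
Med12l: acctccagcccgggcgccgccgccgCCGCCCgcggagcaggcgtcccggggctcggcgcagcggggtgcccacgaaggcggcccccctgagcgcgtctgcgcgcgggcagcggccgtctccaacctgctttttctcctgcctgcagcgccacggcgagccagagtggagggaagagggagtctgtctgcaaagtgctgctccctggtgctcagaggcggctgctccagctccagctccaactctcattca
Taf15: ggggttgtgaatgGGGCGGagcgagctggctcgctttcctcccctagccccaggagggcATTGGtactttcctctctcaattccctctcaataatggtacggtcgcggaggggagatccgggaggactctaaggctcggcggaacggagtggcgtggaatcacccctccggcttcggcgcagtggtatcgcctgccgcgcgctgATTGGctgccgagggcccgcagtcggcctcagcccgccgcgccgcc

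The Polr2a window held 3 GC boxes and a TATAAA whose bases ran from -33 to -28 relative to the start. The Gtf2a2 window held 1 match, a TATAAA on the opposite strand at -204 to -199. Med12l had 1 GC box and Taf15 a GC box and 2 CCAAT boxes. Over the 89 family members with an entry in the promoter table, 59.6% had a GC box and 14.6% a TATAAA in this window, against 35.4% and 14.3% of 27025 genes. These 27025 genes were taken whether or not the arrays measured them. Shares among the 11915 measured genes are not given here, so these contrasts do not separate this family from measured genes in general. An ETS core (CCGGAAG) was in 27.0% of members and 7.83% of all genes, and an NRF1 core (GCATGCGC) in 10.1% and 2.56%. An E-box (CACGTG) was in 15.7% and 6.86%, a CCAAT in 34.8% and 37.5%, and an E2F motif (TTTGGCGC or TTTCGCGC) in 2.25% and 0.759%. Within the family, 20 genes that were at least 1.5-fold lower and 66 other measured ones have an entry. A GC box was in 60.0% of the 20 and 60.6% of the 66, and an ETS core in 25% and 28.8%. A TATAAA was in 25% (5 genes) and 10.6% (7 genes), an NRF1 core in 5% and 12.1%, and an E-box in 20% and 13.6%. A CCAAT was in 30% and 37.9%, and an E2F motif in 1 gene of each group. Genes with several starts counted once if any window had a match, and none of the motifs contains another. A match describes letters in this window, not a bound site.

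Of the polymerase subunits taken by symbol, none was at least 1.5-fold higher. At least 1.5-fold lower were 5 of 25 (20%, against 14.6% of all genes), and the median log2 ratio was -0.32. The catalytic subunits differed between the enzymes. Polr2a, which encodes the largest subunit of RNA polymerase II and carries its regulatory C-terminal tail, read 49.7 units on the control array and 24.7 units after CCR4b RNAi, 2.01-fold lower (log2 ratio -1.01), and its dimmer probe set went from 19.2 units to below the floor. Polr2b, the second catalytic subunit, read 310 and 235 units (log2 ratio -0.40). Polr2a was thus the lowest of the RNA polymerase II subunits on its brightest probe set, whereas its partner lay within 1.5-fold.

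In RNA polymerase I the order was the other way on the brightest probe sets. Polr1a, its largest subunit, read 61.7 and 50.6 units (log2 ratio -0.29), with -0.94 and -0.51 on its next probe sets, and Polr1b, the second largest, read 54.8 and 31.0 units (1.77-fold lower). Polr1e read 25.7 and 21.3 units on a probe set open to cross-hybridisation, and 29.1 units against a value below the floor on its other one (log2 ratio -1.85 or lower). The median of these 3 genes, -0.29, became -0.82 when probe sets ending in _x_at or _s_at were left out or when a gene's measured probe sets were summarised by their median. The catalytic pair of RNA polymerase III was nearly level: Polr3a read 40.6 and 44.5 units (log2 ratio 0.13, with -0.51 on a dimmer probe set) and Polr3b 29.3 and 25.7 units (-0.19, with 0.03 on a dimmer one).

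The subunits specific to RNA polymerase II were uniformly lower. All 8 measured were below 0, from -1.01 to -0.29, with a median of -0.47. Besides Polr2a, Polr2c, part of the assembly platform, passed 1.5-fold, at 272 and 174 units. Polr2m, which encodes the Gdown1 protein that binds the polymerase and blocks TFIIF, read 341 and 229 units (1.49-fold lower), and Polr2d, a stalk subunit, 129 and 89.0 units (1.45-fold lower). Its stalk partner Polr2g read 627 and 502 units (log2 ratio -0.32), and Polr2i and Polr2j had -0.29 and -0.31.

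Subunits that several polymerases share were also below 0 in 5 of 5 cases (100%, against 56.0% of all genes). None reached 1.5-fold on its brightest probe set. Polr2k and Polr2l are not counted here because their probe sets also name another gene. The Polr2k probe set read 370 and 402 units, which is higher, and the Polr2l probe set 419 and 291 units, which is lower. Polr1c, common to RNA polymerases I and III, read 530 and 372 units (log2 ratio -0.51), with -0.73 on its other probe set. Polr1d, its partner in both enzymes, gave discordant readings: 789 and 698 units (-0.18) on the brightest probe set, then log2 ratios of 0.22, -1.08 and 0.06. Polr2h, Polr2f and Polr2e, found in all 3 enzymes, had log2 ratios of -0.43, -0.30 and -0.18. A dimmer Polr2e probe set, at 18.0 and 23.9 units, had 0.41, and the Polr2e ratio changed sign in 3 of the 9 alternatives run.

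RNA polymerase III subunits were spread more widely, from -0.97 to 0.49 over 9 genes with a median of -0.19. Polr3e read 47.6 and 24.3 units (1.96-fold lower), but a dimmer probe set went from below the floor to 9.10 units, just above it. Polr3c, of the subcomplex that acts in initiation, read 78.9 and 48.4 units (1.63-fold lower, and -0.60 on its other probe set). Polr3f, which belongs to the same subcomplex as Polr3c, had log2 ratios of -0.46, -0.50, -1.12 and -0.06. At the other end, Polr3d read 17.6 and 24.8 units (log2 ratio 0.49), with 0.06 on its other probe set. Polr3k had 4 measured probe sets at -0.36, 0.20, 0.30 and -0.90. Of the alternative subunits Polr3g and Polr3gl, which occupy the same place in different forms of the enzyme, Polr3gl read 61.2 and 58.4 units, while Polr3g was at the floor, with 6.55 and 8.14 units.

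**Figure D2:**
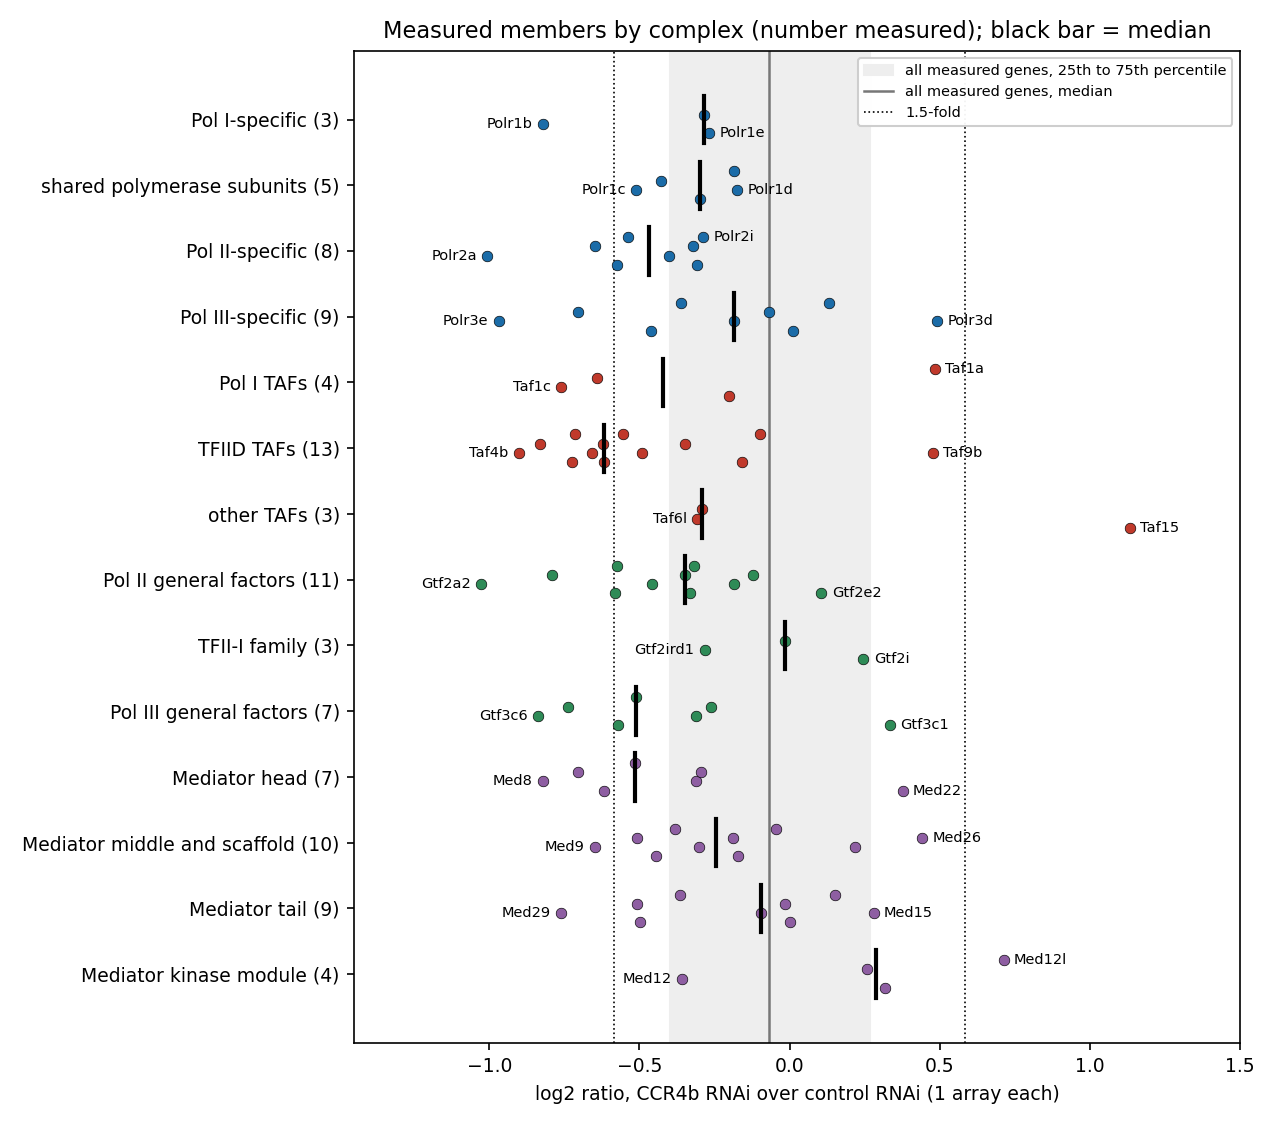
The log2 ratio of CCR4b RNAi over control RNAi (x axis) of each measured member, by complex (y axis, number measured in brackets), from 1 array per group; bars are medians, the grey band spans the 25th to 75th percentile of all measured genes and dotted lines mark 1.5-fold. Among genes taken by symbol, the TFIID TAFs have the lowest median (-0.62) and the Mediator kinase module the only clearly positive one (0.29). Under both other choices of probe set the median of the 3 RNA polymerase I subunits, -0.82, is lower. The kinase module's median became -0.07 when probe sets were summarised by their median.

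The TAFs of TFIID had the lowest median of the complexes. The exception was that the 3 RNA polymerase I subunits taken by symbol were lower (-0.82) under both other choices of probe set. Of 13 TFIID TAFs measured, 12 were below 0 (92.3%, against 56.0% of all genes), with a median log2 ratio of -0.62. At least 1.5-fold lower were 7 of 13 (53.8%, against 14.6% of all genes), and none was as much higher. Taf1, the largest subunit and the scaffold of TFIID, read 69.4 and 39.0 units (1.78-fold lower). Taf2, which contacts the initiator element, read 104.5 and 63.7 units (1.64-fold lower, and -0.44 on its dimmer probe set). Taf5, a WD-repeat scaffold, read 57.7 and 37.5 units (1.54-fold lower). Histone-fold subunits were lower as well. Taf10 read 557 and 337 units (1.65-fold lower) and Taf12 92.6 and 60.3 units (1.54-fold lower); both also belong to the SAGA coactivator. Taf3, a histone-fold subunit with a chromatin-reading domain, read 15.4 and 9.74 units (1.58-fold lower), close to the floor.

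Taf6, Taf13 and Taf11, further histone-fold subunits, had log2 ratios of -0.55, -0.49 and -0.35, and Taf8 -0.10. Taf4 read 35.6 and 31.9 units on its brightest probe set (-0.16), which can bind other transcripts, and 42.2 and 19.4 units on the other (-1.12). Its paralogue Taf4b read 17.8 and 9.5 units (1.87-fold lower), whereas a dimmer probe set had 9.15 and 11.3 units. Taf9b was the only one above 0, at 9.29 and 12.9 units (0.48). Taf7, Taf7l and Taf7l2 stayed below the floor with their brightest probe set, and Taf9 is not analysed here because its probe sets also name another gene. The count of lower TFIID TAFs was 4 of 13 with quantile normalization, loess or centring by signal class. In those settings 12.3% to 13% of all genes were lower. The count was 9 of 13 with median scaling, where 19.0% of all genes were lower. The complex median lay between -0.71 and -0.53 under the 9 alternatives run.

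TAFs outside TFIID did not share one direction. In SL1, the promoter selectivity factor of RNA polymerase I, Taf1c read 27.7 and 16.3 units (1.69-fold lower) and Taf1d 110.6 and 70.9 units (1.56-fold lower), while Taf1b had -0.20 and Taf1a, at 21.3 and 29.9 units, 0.48. The Taf1c and Taf1d values come from probe sets open to cross-hybridisation. Without such probe sets 0 of the 3 SL1 TAFs left were 1.5-fold lower, with a median of -0.20 in place of -0.42. For Taf1d, 4 others above the floor on both arrays ranged from -0.25 to 0.53. Taf5l and Taf6l, which replace Taf5 and Taf6 in SAGA, had -0.29 and -0.31. Taf15, an RNA-binding protein, had the highest ratio of the family: the control array had 7.17 units, below the floor, and the CCR4b RNAi array 17.7 units, which is at least 2.19-fold higher. Its other probe set went from 9.63 units to below the floor, so the pair disagree in direction and both are dim.

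Among general factors of RNA polymerase II, 10 of 11 measured were below 0 (90.9%, against 56.0% of all genes), with a median of -0.35. At least 1.5-fold lower were 2 of 11 (18.2%, near the 14.6% of all genes), and none was as much higher. Gtf2a2, the small subunit of TFIIA, which steadies TBP on DNA, read 326 and 159.6 units (2.04-fold lower), the lowest brightest-probe-set ratio of the family. Its partner Gtf2a1 read 40.7 and 29.6 units (log2 ratio -0.46), with 0.25 on a dimmer probe set and, on the dimmest, a control value of 6.09 units, below the floor, against 14.7 units (at least 1.82-fold higher). The germ-cell paralogue Gtf2a1l was below the floor. Gtf2h4, a core subunit of TFIIH that regulates the XPB translocase, read 195 and 112.5 units (1.73-fold lower), and its other probe sets gave -1.04 and -1.03. It was the only one of the general factors of RNA polymerase II with several probe sets all past 1.5-fold.

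Both subunits of TFIIF lay just short of that threshold: Gtf2f1 had log2 ratios of -0.57 and -0.76 on its probe sets and Gtf2f2 -0.58. TFIIB, encoded by Gtf2b, was near level, at 198 and 182 units (-0.12), as was Gtf2e2 of TFIIE (0.11), beside -0.32 for its partner Gtf2e1. The other TFIIH core subunits measured, Gtf2h1, Gtf2h3 and Gtf2h5, had -0.35, -0.33 and -0.18, and a dimmer Gtf2h5 probe set had 0.58. The TFII-I family, whose members are sequence-specific regulators rather than parts of the initiation complex, stood near the median of all genes, with Gtf2i at 0.25, Gtf2ird2 at -0.02 and Gtf2ird1 at -0.28; a dimmer Gtf2ird1 probe set went from 13.5 units to below the floor (at least 1.67-fold lower).

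Of the RNA polymerase III general factors, 6 of 7 were below 0 (85.7%, against 56.0% of all genes), with a median of -0.51. At least 1.5-fold lower were 2 of 7 (28.6%, against 14.6% of all genes). In TFIIIC, which binds the internal promoters of transfer RNA genes, Gtf3c6 read 187 and 104.4 units (1.79-fold lower) and Gtf3c3 88.9 and 53.3 units (1.67-fold lower). Gtf3c4 had -0.51 and -0.52 on its probe sets, Gtf3c2 between -0.68 and -0.26 on 4, and Gtf3c5 -0.31. Gtf3c1, the largest subunit, went the other way, at 45.1 and 56.9 units (0.33). Gtf3a, which encodes TFIIIA, the 5S gene factor, read 241 and 162 units (1.49-fold lower).

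The modules of Mediator differed in their medians. In the head, which contacts RNA polymerase II, 3 of 7 genes were at least 1.5-fold lower (42.9%, against 14.6% of all genes), with a median of -0.51. Med8 read 390.4 and 221 units (1.77-fold lower), Med17, the central head subunit, 58.2 and 35.7 units (1.63-fold lower), and Med11 83.9 and 54.6 units (1.54-fold lower). Med6 had -0.51 and -0.57 on its probe sets, Med18 and Med20 had -0.31 and -0.30 (0.10 on a dimmer Med20 probe set), and Med22 was the exception at 39.7 and 51.5 units (0.38). Under the 9 alternatives the head median lay between -0.61 and -0.37. The count of lower head genes was 2 of 7 with quantile normalization, loess or centring by signal class. In those settings 12.3% to 13% of all genes were lower. The head count was 4 of 7 with median scaling, where 19.0% of all genes were lower.

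The middle module and the scaffold Med14 had a median of -0.24 over 10 genes. Med9 was the only one past 1.5-fold, at 116.9 and 74.6 units (1.57-fold lower), but a dimmer probe set had 9.71 and 13.2 units (0.44). Med1, the main docking subunit for nuclear receptors, read 179 and 131 units (-0.44) on its brightest probe set, and then -0.73, -0.79, -1.64 and, on a probe set near the floor, 0.51. Med19 had -0.30 and -1.05, and Med4 and Med10 had -0.51 and -0.38. Med14 had -0.17, -0.13 and -0.03, and Med21 and Med31 had -0.19 and -0.04. Med7 and Med26 were above 0, at 0.22 and 0.44, and the dimmer probe set of Med26, a subunit that recruits elongation factors, went from 8.09 to 16.9 units (1.07).

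The tail, the main target of activators, had a median of -0.10 over 9 genes, a value that turned to between 0.0036 and 0.043 with quantile normalization, loess or centring by signal class, and was -0.23 with the 75th percentile floor and -0.28 with the median over probe sets. Med29 read 70.1 and 41.4 units (1.69-fold lower), and Med16 and Med27 had -0.51 and -0.50. Med30 had -0.36 and Med23 -0.10. Med25 was level at 78.6 and 77.7 units, and Med28 at 373 units on both arrays. Med24 had 0.15, and Med15 had 0.28 on its brightest probe set and -0.83 on the next.

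Among genes taken by symbol, the kinase module was the only one with a clearly positive median, 0.29 over 4 genes. It became -0.07 when a gene's probe sets were summarised by their median. The module's kinases Cdk8 and Cdk19 and its cyclin Ccnc fall outside the symbol rule. They had log2 ratios of -0.47, -0.57 and 0.44, with -0.73 on another Ccnc probe set. Med12l read 20.9 and 34.2 units (1.64-fold higher), while its paralogue Med12, the activator of the module's kinase, read 55.8 and 43.6 units (-0.36). The paralogues Med13 and Med13l, which link the module to the rest of Mediator, read 68.0 and 84.8 units (0.32) and 265 and 317 units (0.26), but their dimmer probe sets were negative, at -0.30 for Med13 and -0.16 and -0.18 for Med13l. The direction for Med13 and Med13l therefore differed between probe sets, and that of Med12l rested on the 1 probe set above the floor. Med9os, the transcript opposite Med9 that the symbol rule also takes in, was near the floor at 8.58 units in the control and below it after CCR4b RNAi, and is counted in no module.

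**Figure D3:**
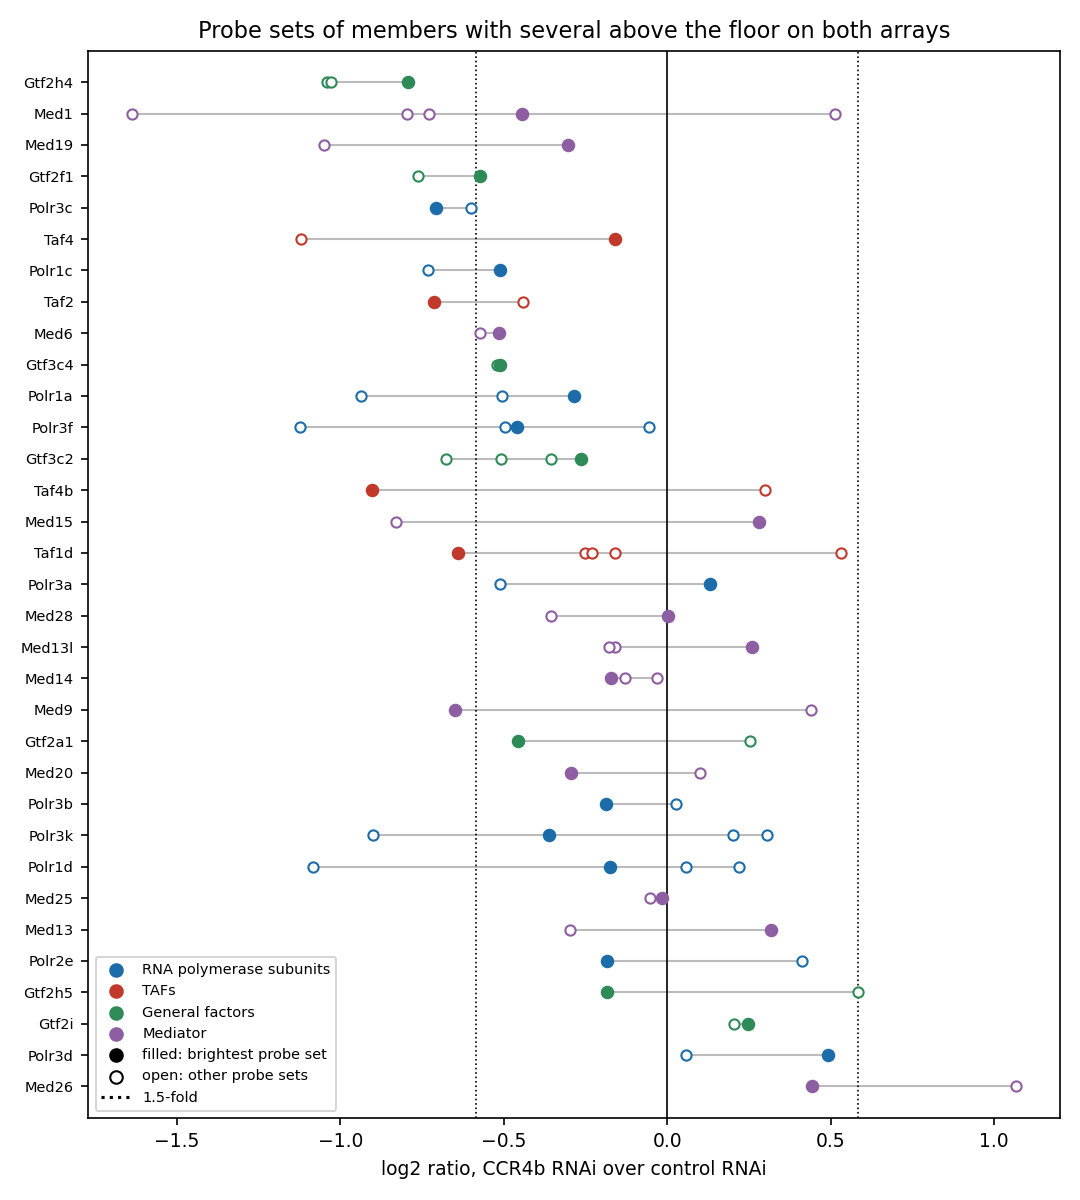
The log2 ratio of CCR4b RNAi over control RNAi (x axis) of every probe set above the floor on both arrays, for the 33 members with at least 2 such probe sets (y axis); filled points are the brightest, open points the others, and dotted lines mark 1.5-fold. In 14 genes every point is below 0, in 3 every point is above 0, and in 16 the points lie on both sides.

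Probe sets of one gene often disagreed, which limits the precision of single values. Over 2716 genes with exactly 2 probe sets above the floor, the robust SD per probe set was 0.33 log2 units. This spread comes from the same pair of arrays and does not include variation between cultures, which was not measured. Among the 33 members with at least 2 such probe sets, every one was below 0 in 14 (42.4%, against 33.0% of 4550 genes in all) and above 0 in 3 (9.09%, against 23.5%). Of the 23 members at least 1.5-fold lower, 14 rested on 1 measured probe set. In 3 of the other 9, Polr2a, Polr3c and Gtf2h4, every measured probe set passed 1.5-fold. No member had one probe set at least 1.5-fold lower and another as much higher. Of the 27 members within 1.5-fold on the brightest probe set that had another above the floor on both arrays, 11 were at least 1.5-fold lower on such a probe set (Gtf2f1, Gtf3c2, Med1, Med15, Med19, Polr1a, Polr1c, Polr1d, Polr3f, Polr3k and Taf4) and 1 as much higher (Med26); Gtf2a1, whose higher probe set was below the floor in the control, is not in this count. Over all genes of that kind, 14.5% and 16.2% did so. Counted by probe set, 42 of 164 measured (25.6%, against 14.4% of all measured probe sets with 1 gene) passed 1.5-fold downward and 4 (2.44%, against 12.7%) upward.

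Partner proteins of these complexes, and subunits under other names, formed a list of 79 genes, of which 71 were measured. At least 1.5-fold lower were 11 (15.5%, against 14.6% of all genes), and 5 were as much higher (7.04%, against 11.3%). Their median log2 ratio was -0.24, with 48 of 71 below 0, where 56.0% of all measured genes were below 0. Tbp, the TATA-binding protein at the centre of TFIID and SL1, read 125 and 77.4 units (1.62-fold lower). The NELF subunits Nelfcd and Nelfe, which hold paused RNA polymerase II, read 81.0 and 44.9 units and 162 and 90.4 units (1.80-fold and 1.79-fold lower). Nelfa and Nelfb, of the same complex, were within 1.5-fold, with log2 ratios of -0.17 and 0.13. Supt16, a subunit of the histone chaperone FACT, was 1.81-fold lower, at 203 and 112.3 units. Rpap1 and Rpap3, which help to assemble RNA polymerase II, were 1.87-fold and 1.81-fold lower, and the assembly GTPases split, with Gpn3 1.5-fold lower and Gpn2 1.96-fold higher from 11.6 units.

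Among RNA polymerase III partners 2 of 11 passed 1.5-fold downward and 2 upward (18.2% each way, against 14.6% and 11.3% of all genes). Crcp, a subunit of the enzyme itself under another name, read 70.2 and 38.4 units (1.83-fold lower), and Brf2 was 1.51-fold lower, whereas Brf1, the TFIIIB subunit for transfer RNA genes, and Snapc1 were 1.54-fold and 1.61-fold higher, from dim control signals of 19.2 and 20.6 units. Cdc73 and Ell, elongation factors, were 1.69-fold and 1.53-fold lower on their brightest probe set but had other probe sets as high as 1.42 and 1.12 (log2). Aff4 was 1.58-fold higher with -0.01 on its other probe set. Ercc2, a TFIIH helicase, had 4.69 units on the control array, below the floor, and 18.7 units on the other, at least 2.32-fold higher. The Mediator kinases Cdk8 and Cdk19 with their cyclin Ccnc had 0 of 3 past 1.5-fold in either direction, with a median of -0.47. The RNA polymerase I list had 0 of 6, with a median of -0.24. In that list Znrd1, Twistnb and Cd3eap are subunits of the enzyme under other names, and had -0.57, -0.24 and 0.21.

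**Figure D4:**
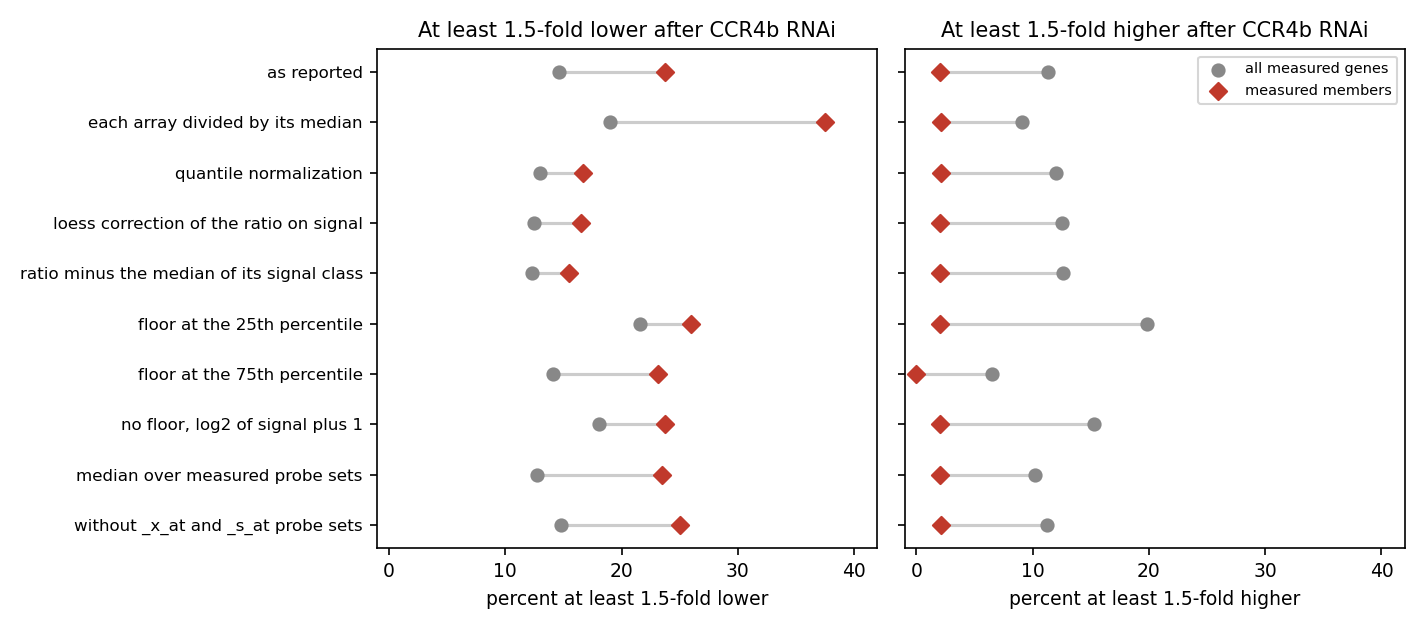
Percentage of measured members (red diamonds) and of all measured genes (grey circles) that were at least 1.5-fold lower (left) or higher (right) after CCR4b RNAi, as reported and under each of 9 alternative settings (y axis). The diamonds lie to the right of the circles on the left panel, by as little as 15.5% against 12.3%, and at 0% to 2.08% on the right panel.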

How the data were processed

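Total RNA of 2 NIH3T3 cultures was read on 1 array each (1-colour, biotin-labelled cRNA). The deposited values are intensities on a linear scale, which the authors computed in GCOS with a global normalization, per the series design text. Its version and target value: not given in the sources used here. Such scaling sets both arrays to a common level, so a difference in total mRNA per cell would not be seen. Array number limits the precision.

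Probe sets were named through the platform annotation: 34958 have 1 gene symbol, 932 several (not used) and 9211 none. All 101 member symbols matched RefSeq by gene ID. Values were raised to a floor, the 50th percentile of both arrays (8.07 units), before log2 ratios were taken. A gene is measured if its brightest probe set (highest mean log2 signal) reaches the floor on either array; a ratio against the floor is a bound, written "at least". Signal classes are 10 equal classes of mean signal. No test was possible with 1 array per group. The steps were tested on simulated data. Python 3.11.15, pandas 2.3.3 and statsmodels 0.14.6 (loess span 0.3) were used.

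The members and lists were chosen with earlier results of these data known. The rule for named genes took every member at least 1.5-fold different, the 2 largest subunits of each polymerase, shared subunits, paralogue pairs and members with probe sets past 1.5-fold in both directions (there were none), and partner genes at least 1.5-fold different; others are given by ratio. Alternatives were 4 scalings, 3 treatments of the floor and 2 choices of probe set.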

Additional observations from a re-analysis of the deposited data

How the results depend on the processing

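Each complex median kept its sign in every one of the 9 alternatives that measured it, except those of the Mediator tail and kinase module. These signs are taken against 0, and the median of all genes was itself -0.07 as reported. Relative to that of all genes, the RNA polymerase III subunit median was -0.12 as reported and 0.0036 without _x_at and _s_at probe sets. The TFII-I family median on that scale was 0.054 as reported. It was -0.049 with quantile normalization, -0.069 with loess and -0.063 with centring by signal class. The median of all members ranged from -0.42 to -0.21. Members at least 1.5-fold lower numbered 23 as reported (23.7%, against 14.6% of all genes). They numbered 36 after division by the array median (37.5% against 19.0%) and 15 relative to the signal class (15.5% against 12.3%). Members at least 1.5-fold higher were 0 with the floor at the 75th percentile, which left 78 members. In that setting 6.48% of all genes were as much higher. The 2 members at least 2-fold lower became 1 with quantile normalization, loess, the 75th percentile floor or log2 of signal plus 1, 0 relative to the signal class, 4 with the median over probe sets and 5 without _x_at and _s_at probe sets. The 1 at least 2-fold higher became 0 with the 75th percentile floor or the median over probe sets. The median of the 3 RNA polymerase I subunits taken by symbol became -0.82 with either other choice of probe set. That of the kinase module became -0.074 with the median over probe sets. Of the 25 members past 1.5-fold, 11 stayed past it in every alternative that measured them, 14 did not in at least 1, and 0 changed sign. Ratios of probe sets near the floor, such as those of Taf15, Taf3 and Taf4b, are limited by low signal. The causes were not tested.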
